A study of Rattus norvegicus with 145 samples.

Results

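Liver RNA of vehicle-treated male rats was compared between necropsies 3 weeks apart, on day 8 and on day 29 of a gavage study. The comparison used 10 of the 145 sequenced rats: the 5 vehicle males necropsied on day 8 and the 5 vehicle males necropsied on day 29 of experiment B, chosen by their sex, dose and day. Acetamide, a food contaminant, was given by daily gavage to male rats in an experiment A and to rats of both sexes in a larger experiment B, and liver RNA was sequenced in groups of 5 rats by dose, sex and day. All rats were Rattus norvegicus of the strain labelled Crl:WI, a Wistar stock, with no genetic modification named. The labels give an age of 8 to 10 weeks for experiment B and of 9 to 10 weeks for experiment A. They do not say whether this was the age at the first dose or at necropsy. The study's methods name it for rats put on daily gavage, which reads as the age at the start of dosing. Day 29 rats would then be about 3 weeks older at necropsy than day 8 rats. The 10 rats received the water vehicle by daily gavage, for 7 days (males day 8) or 28 days (males day 29), and RNA came from the left lobe of the liver. The study describes an overnight fast before necropsy in experiment A and names terminal weights of experiment B as fasting weights. The source labels name separate animals, so the spread between libraries is a spread between rats. The day 29 vehicle males carry the experiment label of the first study, whereas their titles and the study's design place them with the other experiment B rats, and they were used as such. Each day is a separate deposited count table, and whatever differs between the tables other than the day of necropsy (age, housing time, necropsy date, library preparation) cannot be told apart from the day.

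At the age studied here the male rat is still gaining weight. The bulk of liver RNA comes from hepatocytes, while collagens and other matrix proteins are made mainly by stellate cells and fibroblasts, and the resident macrophages are the Kupffer cells. Male and female rat livers express different cytochrome P450s under the control of the pattern of growth hormone secretion, and many hepatic genes follow the circadian clock, in which the activators Bmal1 and Clock switch on repressors of the Per, Cry and Rev-erb families.

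Gene counts summed to 20196236 to 33497708 reads in the rats of day 8 (median 30042635) and to 25223612 to 31756800 in those of day 29 (median 29879537). The share of reads that the counting program set aside for too low an alignment quality was 17.3 to 34.3% on day 8, where replicates 4 and 5 exceeded 30%, and 16.0 to 18.5% on day 29. No pair of libraries was identical, and the correlation of log2 values was 0.9855 to 0.9941 between days, against 0.9881 to 0.9919 within day 8 and 0.9892 to 0.9941 within day 29. Hepatocyte markers were at the level of liver in every library: Alb, the main plasma protein, was 163800 ± 25480 CPM (SD, n = 5) on day 8 and 145500 ± 16380 on day 29. Expression is given in CPM (counts scaled to a common library size after TMM normalization), and differences as the log2 fold change of day 29 over day 8 with its standard error.

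Very few genes separated the days. The call required an FDR (p adjusted by Benjamini-Hochberg) no larger than 0.05 in edgeR's quasi-likelihood F-test together with a change of 1.5-fold or more, and 2 of the 10875 genes tested (0.0184%) met this, both lower on day 29. They were Rps2, which encodes a protein of the small ribosomal subunit, and LOC500035, a locus without an assigned name, named here although the rule for named genes leaves it out. No gene was called as higher. At an unadjusted p under 0.05 there were 1367 genes (12.6%), 670 higher and 697 lower, and the Wald test of DESeq2 on the same counts called 35 (0.322%), 5 higher and 30 lower, with 1460 genes at an unadjusted p under 0.05. The median log2 fold change of all genes tested was -0.00195, and the median of its absolute value was 0.159.

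Rps2 was lower in every rat of day 29 than in any rat of day 8. On day 8 its level was 51.5, 47.5, 38.4, 51.7 and 42.7 CPM in replicates 1 to 5, and on day 29 it was 10.3, 7.79, 8.62, 8.86 and 9.23 CPM. The lowest rat of day 8 was far above the highest of day 29. The means were 46.4 ± 5.7 and 8.96 ± 0.92 CPM (SD, n = 5 each), a log2 fold change of -2.37 ± 0.11 (95% interval -2.59 to -2.15, adjusted p = 1.3e-06 in edgeR). Rps2 has many near-identical copies in mammalian genomes, so its count can depend on how the aligner placed reads that match several copies. The value is uncertain for that reason, and the part of such reads in the difference was not tested. With all 60 experiment B males in a single fit the log2 fold change was -2.37 and the adjusted p 0.17.

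LOC500035 was 14.4, 5.98, 21.1, 24.9 and 48.1 CPM on day 8 and 1.20, 1.67, 0.853, 0.98 and 0.73 CPM on day 29. Again all 5 rats of day 29 lay below all 5 of day 8, but within day 8 the rats spread over a wide range. The 2 highest levels were those of replicates 4 and 5, the rats of day 8 with the largest shares of low alignment quality (34.3 and 31.2%), and the lowest was that of replicate 2, with the smallest share (17.3%). The log2 fold change was -4.39 ± 0.51 (adjusted p = 0.0106 in edgeR), and the call was lost when day 29 replicate 1, 3 or 4 was left out (adjusted p = 0.0618, 0.0701 and 0.0674). Without replicates 4 and 5 of day 8 it was -3.66 (adjusted p = 0.0272), and the part of alignment quality in the difference was not tested further. What this locus encodes is not given in the sources used here.

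Both loci were also followed in the other rats of the study. Across all 120 rats of experiment B, Rps2 levels without the TMM scaling left an empty interval between 16.5 and 28.1 CPM. Above it lay 23 of 30 males and 23 of 30 females of day 8 over all doses, but 2 of 30 males and 3 of 30 females of day 29. All 5 vehicle females of day 8 were above it (46.0 to 53.0) and 1 of the 5 vehicle females of day 29 was (49.1). In experiment A, whose rats were necropsied on day 8 and came from another supplier, 1 of 25 males was above it, and the 5 vehicle males were at 3.58 to 13.7. Day 8 vehicle males of experiment B exceeded those of experiment A by 2.58 ± 0.30 on the log2 scale (adjusted p = 0.0032 in edgeR), and the same comparison gave 4.48 for LOC500035 (adjusted p = 0.014). This comparison shares the day 8 rats with the one between days. Rats of 1 dose and day could also lie on both sides of the interval, as among the males of day 8 at 500 mkd, with 3 rats above and 2 below. LOC500035, also without the TMM scaling, had a median of 21.1 CPM in vehicle males of day 8. At 300 and 500 mkd the males of day 8 had medians of 4.39 and 4.54 CPM. All males of day 29 lay between 0.385 and 3.74 CPM. Vehicle females had 2.26 to 26.4 CPM on day 8 and 0.48 to 4.65 on day 29. The highest rat, replicate 2 of the day 8 males at 300 mkd, had 47.0 CPM. Its share of low alignment quality was 46.7%, whose part was not tested.

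**Figure D1:**
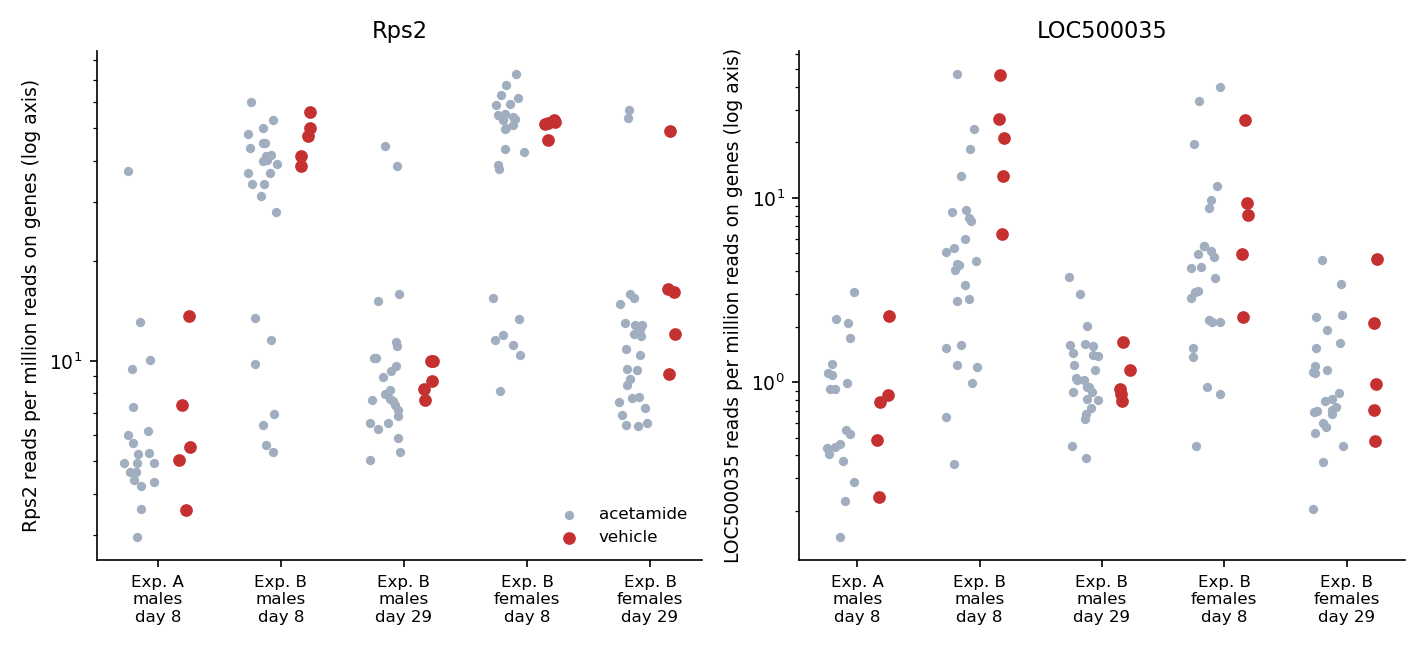
Rps2 (left) and LOC500035 (right) in each of the 145 rats, in CPM without the TMM scaling on a log axis, by experiment, sex and day; red points are vehicle rats and grey points acetamide-treated rats. Vehicle males of experiment B sit at 38.6 to 55.9 for Rps2 on day 8 and 7.63 to 10.0 on day 29, and vehicle males of experiment A, also day 8, at 3.58 to 13.7.

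Apart from these loci, every gene had an adjusted p above 0.1 in edgeR, and the genes named in the rest of the text are given as values. Those outside the rule for named genes (stated with the processing) were chosen after their values were seen. The gene lists used below were chosen with earlier results of these data known. The smallest p after the called pair belonged to Echdc3, which encodes a mitochondrial enoyl-CoA hydratase-like protein. Its level was 101, 94.2, 108, 106 and 98.1 CPM on day 8 and 150, 148, 136, 157 and 136 CPM on day 29, so the groups were apart by more than the spread within either. The log2 fold change was 0.52 ± 0.08, below the 1.5-fold threshold, with an adjusted p of 0.148 in edgeR and 1.4e-08 in DESeq2.

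Of the 30 lower genes that DESeq2 called, 5 are given as examples. Cav1, the coat protein of caveolae, had 4.12 ± 1.0 CPM on day 8 and 1.86 ± 0.52 on day 29 (log2 fold change -1.14 ± 0.23, DESeq2 adjusted p = 0.0039), and the days did not overlap. Clec7a, the beta-glucan receptor of macrophages, had 2.94 ± 0.65 and 1.32 ± 0.34 CPM (-1.16 ± 0.22, DESeq2 adjusted p = 0.0039), and Igfbp7, a secreted IGF-binding protein of vessel walls, 70.6 ± 6.5 and 44.1 ± 9.7 CPM (-0.68 ± 0.15, DESeq2 adjusted p = 0.032), again without overlap. Col1a1 and Ppargc1a, described with their lists, were the other examples. In edgeR each of these 5 genes had an adjusted p of 0.33.

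The 5 higher genes of DESeq2 were Idnk, Tmem163, Asrgl1, Tgif1 and LOC100361444. Asrgl1, an L-asparaginase, was 20.2, 9.25, 13.2, 14.1 and 11.2 CPM on day 8 and 23.3, 21.4, 26.1, 25.4 and 20.4 CPM on day 29. The highest rat of day 8 stayed just under the lowest of day 29, and the log2 fold change was 0.78 ± 0.18 (adjusted p = 0.33 in edgeR, 0.034 in DESeq2). Idnk, a gluconokinase, had 4.35 ± 0.45 CPM on day 8 and 6.66 ± 0.60 on day 29 (0.61 ± 0.12, adjusted p = 0.33 in edgeR, 0.0087 in DESeq2), with all rats of day 29 above all of day 8. In total 278 of the 10875 genes tested (2.56%) had no overlap between the days, 156 of them higher and 122 lower on day 29.

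Extracellular matrix genes had lower mean levels on day 29. Of 34 genes on the list, 29 are in the tables and 27 passed the filter on low counts: 24 were lower and 3 higher, with a median log2 fold change of -0.413 against -0.00195 over all genes tested. None was called by edgeR, 10 had an unadjusted p under 0.05, all lower (6.41% of all genes were lower at that level), and DESeq2 called Col1a1. The 7 collagens tested were all lower, with a median of -0.60, followed by the 10 enzymes and inhibitors of the matrix (8 lower, median -0.39) and the 10 other matrix proteins (9 lower, median -0.343).

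Col1a1, a chain of type I collagen, was 13.0, 12.7, 12.0, 20.0 and 17.7 CPM on day 8 and 10.8, 9.76, 7.97, 4.90 and 5.80 CPM on day 29, with no overlap. The log2 fold change was -0.94 ± 0.23 (adjusted p = 0.33 in edgeR, 0.034 in DESeq2). Sparc, a collagen-binding matrix protein, was 148, 177, 140, 143 and 180 CPM on day 8 and 124, 103, 100, 51.9 and 105 CPM on day 29, also with no overlap (-0.70 ± 0.19, adjusted p = 0.33). Replicate 4 of day 29 was the lowest of all 10 rats for both genes.

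Among the other collagens, Col3a1, the chain of reticular fibres, had 326 ± 63 CPM on day 8 and 205 ± 68 on day 29 (-0.67 ± 0.24). The lysyl oxidase Loxl2, which cross-links collagen, had 5.38 ± 1.0 and 2.78 ± 1.1 CPM (-0.96 ± 0.28), and the small proteoglycan Dcn, which binds collagen fibrils, 15.1 ± 7.0 and 7.00 ± 3.5 CPM (-1.11 ± 0.36). Fn1, the matrix gene with the highest level and one that hepatocytes also secrete into plasma, had 3165 ± 572 and 3024 ± 264 CPM (-0.07 ± 0.14), and the membrane metalloproteinase Mmp14 83.8 ± 20 and 89.8 ± 8.9 CPM (0.10 ± 0.15). Without day 29 replicate 4 the median of the 27 genes was -0.289 and that of the collagens -0.426.

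Markers of macrophages, T and NK cells, stellate cells and endothelial cells had lower means on day 29, and those of cholangiocytes were divided. All 11 Kupffer cell and macrophage markers tested were lower on day 29, with a median of -0.607, and their summed level was 670 to 1284 CPM on day 8 and 348 to 859 CPM on day 29. Of 12 listed, Timd4 was not tested, none was called, and 6 had an unadjusted p under 0.05, all lower (6.41% of all genes). In bulk liver, fewer cells of a type and less RNA per cell cannot be told apart.

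Marco, the scavenger receptor of Kupffer cells, was 38.5, 105, 56.6, 40.6 and 62.0 CPM on day 8 and 31.1, 37.2, 21.8, 13.6 and 36.6 CPM on day 29. Every rat of day 29 was below every rat of day 8, the closest being 37.2 and 38.5 CPM, and the log2 fold change was -1.11 ± 0.32 (adjusted p = 0.33). Csf1r, the receptor that macrophages depend on for survival, was 103, 134, 80.5, 83.1 and 88.0 CPM on day 8 and 84.8, 66.7, 58.8, 28.7 and 59.5 CPM on day 29, with replicate 1 of day 29 inside the day 8 range (-0.71 ± 0.24, adjusted p = 0.33). Clec4f, the lectin that marks rodent Kupffer cells, had 286 ± 93 and 167 ± 53 CPM (-0.77 ± 0.27), while the pan-macrophage marker Cd68 had 29.3 ± 7.2 and 24.0 ± 5.9 CPM (-0.29 ± 0.20).

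The 6 T and NK cell markers tested, of 12 listed, were all lower (median -0.641), with sums of 27.9 to 52.3 CPM on day 8 and 14.0 to 33.2 CPM on day 29. The cytotoxic granule protein Prf1 had 3.65 ± 1.1 and 2.22 ± 0.35 CPM (-0.72 ± 0.23). Gzma, a granzyme that is on no list, had 3.62 ± 1.3 and 1.73 ± 0.35 CPM (-1.07 ± 0.26, adjusted p = 0.33 in edgeR, 0.045 in DESeq2). Of the neutrophil markers 3 of 8 were tested, with a median of -1.04, all at low levels. The 10 stellate cell and fibroblast markers, which include Col1a1 and Dcn of the matrix list, were all lower (median -0.465, sums 146 to 208 and 73.1 to 162 CPM), and so were the 6 endothelial markers tested of 8 (median -0.336). Of the 5 cholangiocyte markers tested of 6, 2 were higher and 3 lower (median -0.099), none with an unadjusted p under 0.05. Of the B cell markers 1 of 5 was tested (-0.97), of the adipocyte markers 2 of 6 (median -0.534) and of the pancreas markers 2 of 8 (median -0.639), all lower and none called.

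The 10 hepatocyte markers split evenly, 5 higher and 5 lower, with a median of -0.000495. The 4 erythroid markers tested, of 10 listed, were all higher (median 0.47). Replicate 4 of day 29 had the lowest level of Marco, Csf1r, Clec4f and Prf1 among the 10 rats, and without it the medians were -0.492 for Kupffer cells and macrophages, -0.514 for T and NK cells, -0.285 for stellate cells and fibroblasts, -0.195 for endothelial cells and 0.254 for erythroid cells. The erythroid median was 0.23 without day 8 replicate 3. Without day 8 replicate 5 the Kupffer cell and macrophage median was -0.41, and without day 8 replicate 2 that of T and NK cells was -0.475. Without both replicates 4 and 5 of day 8, those of low alignment quality, these medians were -0.523 and -0.594. In that fit they were -0.38 for stellate cells and fibroblasts, -0.226 for endothelial cells and 0.224 for erythroid cells. Replicate 4 of day 29 had an ordinary share of reads with low alignment quality, within the 16.0 to 18.5% of its group.

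**Figure D2:**
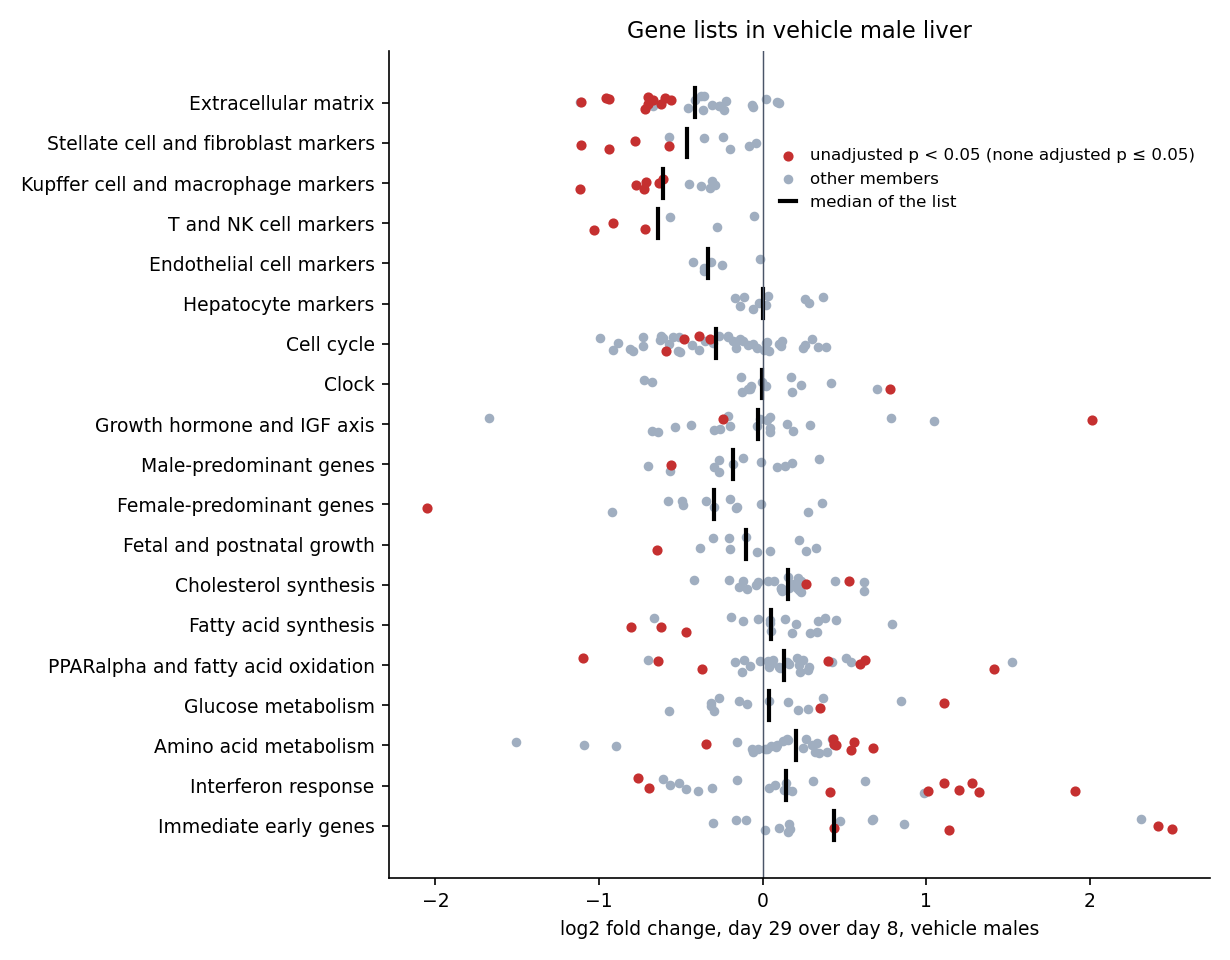
Log2 fold change of day 29 over day 8 in vehicle males for each tested gene of 19 lists; each point is a gene, red at an unadjusted p under 0.05, and the black bar is the median of the list. The medians of matrix, stellate, Kupffer, T and NK and endothelial markers lie between -0.641 and -0.336, and that of hepatocyte markers at -0.000495.

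**Figure D3:**
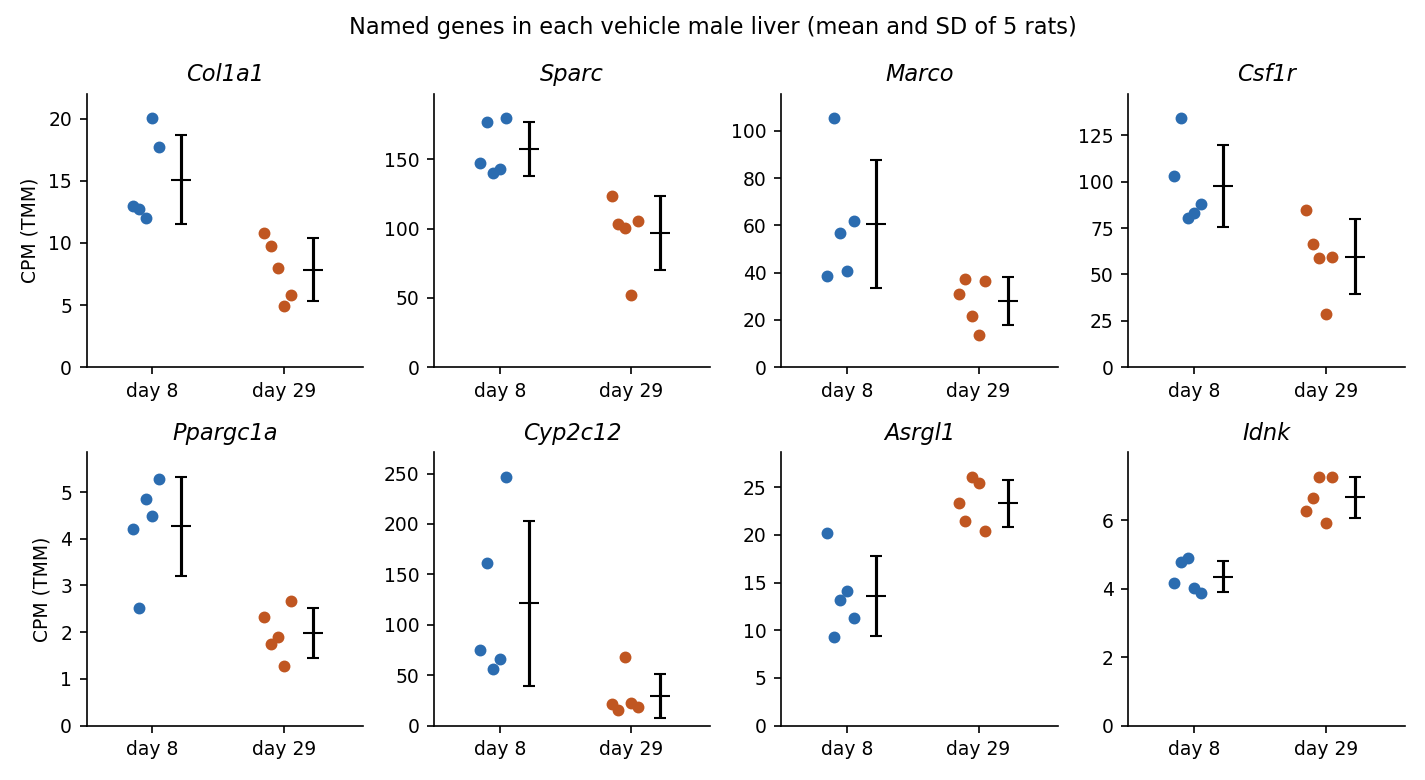
CPM of 8 genes in each vehicle male, blue for day 8 and orange for day 29, with mean and SD (n = 5) beside the points; axes start at 0. Col1a1, Sparc, Marco, Asrgl1 and Idnk do not overlap between the days, and Csf1r, Ppargc1a and Cyp2c12 do.

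Mitotic genes were lower on day 29 by their means, but this rested mainly on 1 rat of day 8. Of 24 mitosis genes 23 were tested, 21 lower and 2 higher (median -0.55), and 1 had an unadjusted p under 0.05. Mki67, the Ki-67 proliferation antigen, was 4.57, 3.72, 5.15, 12.2 and 16.8 CPM on day 8 and 9.31, 3.52, 4.66, 4.90 and 2.99 CPM on day 29 (-0.73 ± 0.44, adjusted p = 0.49). Only replicates 4 and 5 of day 8 exceeded the highest rat of day 29, and Top2a, the topoisomerase of dividing cells, had its 2 highest levels in the same rats (8.38 and 15.2 CPM).

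The median of the mitosis genes was -0.0587 without replicate 5 of day 8 and -0.561 without replicate 4. The same 2 rats had the share of low alignment quality above 30%. Without both the median was 0.188 and Mki67 had a log2 fold change of 0.18, and the part of alignment quality in this result was not tested further. The 16 replication genes had a median of -0.0747, and the 7 tested regulators, such as cyclin D1 and p21, 0.00666.

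The growth hormone and IGF axis showed no common direction. Of 23 genes 22 were tested, 10 higher and 12 lower (median -0.0283), none called. Igf1, the circulating growth factor that growth hormone induces in liver, was 726 ± 230 CPM on day 8 and 707 ± 53 on day 29 (-0.04 ± 0.19, adjusted p = 0.95), and its log2 fold change was 0.32 without day 8 replicates 4 and 5. The binding protein genes Igfbp1 and Igfbp2 varied widely between rats, Igfbp1 from 14.9 to 392 CPM and Igfbp2 from 0.338 to 35.1 CPM.

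Targets of growth hormone signalling differed more between rats than between days. Bcl6, a repressor that growth hormone pulses shut off in male liver, was 17.6, 10.8, 19.9, 19.1 and 10.1 CPM on day 8 and 103, 150, 14.3, 23.4 and 20.8 CPM on day 29, so that the mean difference (2.01 ± 0.61, adjusted p = 0.33) came mainly from replicates 1 and 2. Cish, which STAT5 induces after a pulse, was 2.23 CPM in both of these rats and 79.8 CPM in replicate 3 of the same day. On day 8 Cish ranged from 9.13 to 74.6 CPM (log2 fold change -0.68 ± 0.90).

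The sex-dependent P450s included the largest difference among the genes chosen as references. Cyp2c12, the female-specific P450, was 75.5, 162, 56.3, 66.4 and 247 CPM in day 8 males and 21.5, 15.5, 68.1, 22.8 and 18.1 CPM in day 29 males. Replicate 3 of day 29 lay inside the day 8 range and the other 4 below it, with a log2 fold change of -2.05 ± 0.51 (adjusted p = 0.33 in edgeR, 0.056 in DESeq2). Cyp2c11, the male-specific P450, was 1423 ± 378 and 1410 ± 390 CPM (-0.01 ± 0.22). Among the other genes, the 13 tested of 14 male-predominant genes had a median of -0.181 and the 13 female-predominant genes, Cyp2c12 included, -0.30. When 1 rat was left out these medians ranged from -0.273 (day 8 replicate 4) to -0.0604 (day 8 replicate 2) for the male-predominant genes, and from -0.503 (day 8 replicate 3 or day 29 replicate 2) to -0.178 (day 29 replicate 4) for the female-predominant. In experiment A, also day 8, Cyp2c12 was lower than in day 8 males of experiment B by 2.19 on the log2 scale (adjusted p = 0.093).

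Of 20 genes of the fetal and postnatal growth network, 11 passed the filter on low counts (median -0.101, 4 higher and 7 lower, none called). Afp, the fetal plasma protein, had 16.2 ± 3.4 CPM on day 8 and 19.5 ± 5.4 on day 29 (0.27 ± 0.21, adjusted p = 0.58), and the imprinted gene Peg3 32.0 ± 7.5 and 37.4 ± 7.1 CPM (0.22 ± 0.17).

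The clock genes had large differences between rats of the same day, and the groups overlapped throughout. Of 19 genes 15 were tested, 7 higher and 8 lower (median -0.00664), none called, and only the repressor Nfil3 had an unadjusted p under 0.05 (37.2 ± 11 and 63.8 ± 28 CPM, 0.78 ± 0.32, adjusted p = 0.36). Arntl, the gene of Bmal1, was 2.28, 1.80, 33.6, 6.73 and 18.9 CPM on day 8 and 3.57, 26.7, 32.9, 24.8 and 14.8 CPM on day 29. Its output gene Dbp was 163, 239, 2.69, 128 and 28.3 CPM on day 8 and 190, 28.1, 19.7, 40.0 and 73.9 CPM on day 29. The 4 rats with the lowest Arntl (day 8 replicates 1, 2 and 4 and day 29 replicate 1) were the 4 with the highest Dbp, and day 8 replicate 3 had both the highest Arntl and the lowest Dbp.

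Other members followed these ends. Npas2, a partner of Bmal1, ranged from 1.21 to 40.8 CPM with its extremes in the same rats as Arntl, day 8 replicates 2 and 3. The repressor Per3 was 39.9, 55.9, 3.35, 38.9 and 11.2 CPM on day 8 and 43.6, 9.76, 6.10, 9.94 and 20.8 CPM on day 29 (-0.73 ± 0.68), and was highest in the 4 rats with low Arntl. Ciart, another repressor, ranged from 0.131 to 6.05 CPM, whereas Cry1 stayed between 2.49 and 4.23 CPM in all 10 rats. The study randomized the order of necropsy, and the clock time of each necropsy is not given in the sources used here. With the difference of Arntl and Dbp as a covariate in edgeR, the same number of genes, 2, was called between the days.

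**Figure D4:**
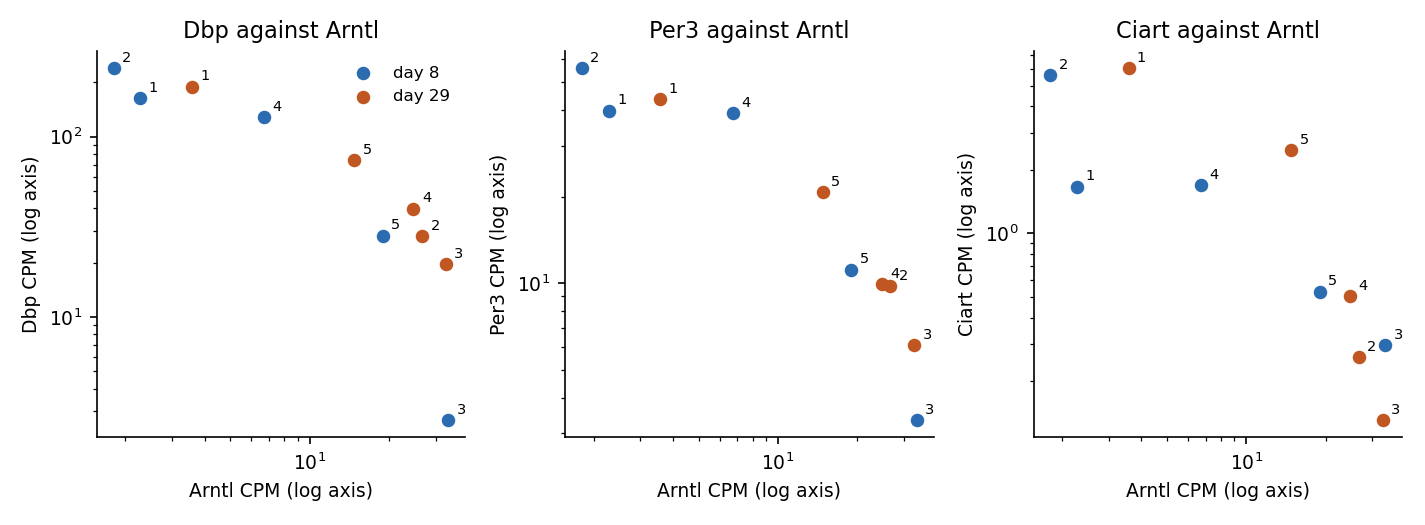
Dbp, Per3 and Ciart against Arntl in each vehicle male, in CPM on log axes; numbers are replicates, blue is day 8 and orange day 29. The 4 rats with Arntl from 1.80 to 6.73 CPM have Dbp from 128 to 239 CPM, and both days have rats at either end.

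Promoters are printed for 2 members that stood at opposite ends in these rats, Ciart among the repressors and Bmal1 among the activators. The windows hold the 250 bases before the start of Ciart, chr2:186112247-186112496 on the minus strand, and of Bmal1 (Arntl in the tables), chr1:176766078-176766327 on the plus strand, both from RefSeq on GRCr8, a later build than the one the reads were aligned to. Capitals mark the E-box CACGTG bound by Bmal1 and Clock and, in Bmal1, the core AGGTCA of the site of Rev-erb and ROR receptors.
Ciart: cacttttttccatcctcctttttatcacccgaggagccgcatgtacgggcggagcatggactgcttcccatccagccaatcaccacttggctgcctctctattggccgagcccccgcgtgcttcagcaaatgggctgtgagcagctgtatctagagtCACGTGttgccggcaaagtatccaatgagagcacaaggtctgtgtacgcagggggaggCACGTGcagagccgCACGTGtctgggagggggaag
Bmal1: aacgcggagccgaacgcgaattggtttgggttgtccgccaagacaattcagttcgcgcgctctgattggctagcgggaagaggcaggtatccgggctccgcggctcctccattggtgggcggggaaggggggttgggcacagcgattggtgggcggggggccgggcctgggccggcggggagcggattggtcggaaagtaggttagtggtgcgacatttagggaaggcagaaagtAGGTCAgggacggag
Ciart holds 3 E-boxes, and the AGGTCA of Bmal1 begins 15 bases before the start. Of the 19 clock genes 16 had a promoter in the RefSeq table. On either strand 5 of them held CACGTG, 2 held AGGTCA and 1, Per2, held the D-box TTATGTAA bound by Dbp and Nfil3, against 5.59, 14.1 and 0.828% of all 33469 promoters. These matches describe the letters of the windows only.

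Among metabolic genes, those that break down amino acids had slightly higher means on day 29. Of 20 catabolic genes 19 were higher and 1 lower (median 0.324), none called, and 6 had an unadjusted p under 0.05, all higher (6.16% of all genes were higher at that level). Hal, the first enzyme of histidine breakdown, had 168 ± 40 CPM on day 8 and 247 ± 39 on day 29 (0.55 ± 0.17, adjusted p = 0.33). The 7 urea cycle genes had a median of -0.0579. Of the 5 synthesis genes, Phgdh, the first enzyme of serine synthesis, ranged from 3.90 to 21.4 CPM on day 8 and from 0.722 to 11.5 CPM on day 29 (-1.51 ± 0.73, adjusted p = 0.41).

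Ppargc1a, the coactivator PGC-1alpha of oxidative and gluconeogenic genes, was 4.20, 2.51, 4.85, 4.49 and 5.27 CPM on day 8 and 2.34, 1.74, 1.90, 1.28 and 2.66 CPM on day 29. The days overlapped by 1 rat, and the log2 fold change was -1.10 ± 0.24 (adjusted p = 0.33 in edgeR, 0.013 in DESeq2). The 32 genes of PPARalpha and fatty acid oxidation had a median of 0.129, 23 higher and 9 lower, with 0.0614 without day 29 replicate 3 and 0.203 without day 29 replicate 1. Fgf21, a fasting-induced hormone of the liver on that list, was 11.4 to 16.6 CPM on day 8 and 14.5 to 28.0 CPM in 4 rats of day 29, with 107 CPM in replicate 5. G6pc, the last enzyme of glucose production, was 324 to 760 CPM on day 8, while on day 29 replicates 2 and 4 had 1879 and 1666 CPM and the others 355 to 795 CPM (1.11 ± 0.41, adjusted p = 0.34).

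The other metabolic lists had medians between -0.0826 and 0.156. The 25 cholesterol synthesis genes had a median of 0.156 (18 higher, 7 lower), which ranged from -0.00938 without day 29 replicate 2 to 0.356 without day 8 replicate 3. Hmgcs1, an early enzyme of that pathway, ranged from 146 to 547 CPM on day 8 and from 147 to 590 CPM on day 29 (0.62 ± 0.47), so both days had rats at both ends. Fatty acid synthesis (19 of 21 tested) had a median of 0.0477, glucose metabolism (15 of 16) 0.0371 and bile acids (21 of 23) -0.0566. Cyp7a1, the rate-limiting enzyme of bile acid synthesis, had 23.4 to 147 CPM on day 8 and 25.8 to 64.0 CPM on day 29 (-1.03 ± 0.49). None of the 28 xenobiotic genes tested of 32 had an unadjusted p under 0.05 in either direction (median -0.0826), and the 19 acute phase genes tested of 20 had a median of 0.0446.

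Several interferon-induced genes were highest in a single rat. Mx2, an antiviral GTPase, was 19.2 to 39.5 CPM in the 5 rats of day 8 and 29.2 to 88.6 CPM in 4 rats of day 29, with 280 CPM in replicate 5. Isg15, a ubiquitin-like modifier, and Oasl, a relative of the oligoadenylate synthetases, also had their highest levels in that rat (53.0 and 22.8 CPM). Over the 25 genes tested of 26 the median was 0.142, with 16 higher and 9 lower and none called. At an unadjusted p under 0.05, 7 of them were higher and 2 lower, against 6.16 and 6.41% of all genes. The median was 0.16 without replicate 5 of day 29 and 0.0605 without replicate 1 of day 8. Immediate early genes, which cells switch on within minutes of a stimulus, had a median of 0.438 (14 of 17 higher, none called) and of 0.121 without day 29 replicate 2. Nr4a1, an orphan nuclear receptor of that list, was 0.797 to 5.61 CPM on day 8 and 1.41, 27.7, 34.7, 12.4 and 1.20 CPM on day 29 (2.50 ± 0.85, adjusted p = 0.33). Heat shock genes (14 of 15) had a median of 0.0549.

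The interval was also available at other doses, in rats of the same count tables. Males at 300 mkd (mg/kg/day) acetamide gave 117 genes called of 10794 (1.08%), 19 higher and 98 lower on day 29, and males at 500 mkd gave 3 of 10846 (0.0277%), all lower. The count at 300 mkd was 2 to 108 when a rat was left out. Replicates 2 and 3 of day 8 at 300 mkd had shares of low alignment quality of 46.7 and 33.0%, and without either of them 5 and 4 genes were called, 3 and 2 of them lower. These rats are not those of the vehicle comparison, but they share its tables and had received acetamide. The day 8 rats had received it for 7 days and the day 29 rats for 28 days. Of the 117 genes, 116 (99.1%) had the same sign in vehicle males, where the median log2 fold change was -0.566 for the 98 lower genes and 0.347 for the 19 higher, against 73.5% of the same sign over all 10726 genes tested in both. For 500 mkd the share over all genes was 61.8%.

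Matrix and macrophage genes were lower in these rats as well. The matrix median was -0.654 at 300 mkd, where Loxl2 (-1.30, adjusted p = 0.022) and Fbn1, the microfibril protein (-1.18, adjusted p = 0.046), were called, and -0.277 at 500 mkd, where none was. The Kupffer cell and macrophage median was -0.961 at 300 mkd, with 8 of 11 markers called as lower (0.908% of all genes), among them Marco (-1.55, adjusted p = 0.00092) and Csf1r (-1.17, adjusted p = 0.02), and -0.604 at 500 mkd with none called. The 8 marker calls at 300 mkd are more than all the lower calls left without either of those replicates. Cholesterol synthesis had medians of 0.695 and 0.437. Other lists followed the vehicle males less closely. Stellate cell and fibroblast markers had medians of -0.593 at 300 mkd and -0.0774 at 500 mkd, and endothelial markers -0.399 and -0.0758. Interferon genes had -0.145 and -0.335, against 0.142 in vehicle males. Erythroid markers had -0.219 and 0.21 (0.47 in vehicle males), and amino acid catabolism 0.0892 and 0.18 (0.324 in vehicle males). Rps2 had -1.06 ± 0.47 at 300 mkd (adjusted p = 0.29) and -1.84 ± 0.51 at 500 mkd (adjusted p = 0.15).

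A fit of the 30 males at 0, 300 and 500 mkd, with dose as a term, was added after seeing the data. It called 471 of 11248 genes (4.19%), 67 higher (0.596%) and 404 lower (3.59%) on day 29. Among them were 7 of 27 matrix genes and 8 of 11 Kupffer cell and macrophage markers, all lower, 4 of the 6 T and NK cell markers, also lower, and 9 of 25 cholesterol synthesis genes, all higher. Of 25 interferon genes 4 were called, all lower, whereas the median of that list was above 0 in vehicle males. Col1a1 had -0.83 (adjusted p = 0.014), Sparc -0.63 (adjusted p = 0.00062), Marco -1.32 (adjusted p = 3.1e-05), Csf1r -0.89 (adjusted p = 0.00014) and Ppargc1a -1.35 (adjusted p = 0.00012). The 10 vehicle males are part of this fit, and it assumes the same difference between days at each of the 3 doses. At 300 and 500 mkd the days also differ in length of acetamide dosing, 7 against 28 days. There day and dosing length cannot be told apart, and whether the difference was equal across doses was not tested. Shares of low alignment quality were 31.2 to 46.7% in day 8 vehicle replicates 4 and 5 and in day 8 replicates 2 and 3 at 300 mkd. No male of day 29 exceeded 24.7%. The fit was not run without these day 8 rats together, and the part of alignment quality was not tested.

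In vehicle females the same interval, from other count tables, called 88 of 11224 genes (0.784%), 25 higher and 63 lower, when the 20 vehicle rats of both sexes were fitted together, and the male contrast in that fit called 4 (0.0356%). With only the 10 females in the fit, edgeR called 0 genes, with 1639 at an unadjusted p under 0.05, whereas DESeq2 on the 20 rats called 271 (2.41%). The matrix median in females was -0.58, but that of Kupffer cell and macrophage markers -0.0936 and that of T and NK cell markers 0.109. The interaction of sex with day, which tests whether males and females differed, called 0 of 11224 genes in edgeR, with 1169 at an unadjusted p under 0.05, and 3 in DESeq2 (0.0267%), so a difference between the sexes was not shown for any of these genes by edgeR. Its adjusted p was 0.42 for Rps2, 0.84 for Col1a1, 0.80 for Marco and 0.42 for Cyp2c12.

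The mean difference over both sexes, added after seeing the data, called 51 of 11224 genes (0.454%), 7 higher and 44 lower (0.392%), and between 6 and 148 when a rat was left out. The lower ones included 6 matrix genes, namely Col1a1 (-1.09, adjusted p = 0.035), Loxl2 (adjusted p = 0.05), Col3a1 (-0.90, adjusted p = 0.029), Fbn1 (-0.86, adjusted p = 0.031), Mmp2 (-0.71, adjusted p = 0.029) and Col5a2 (-0.70, adjusted p = 0.031). No Kupffer cell or macrophage marker was among them. Of the 7 higher genes Asrgl1 had 0.83 (adjusted p = 0.0024), with 0.78 in males and 0.87 in females.

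**Figure D5:**
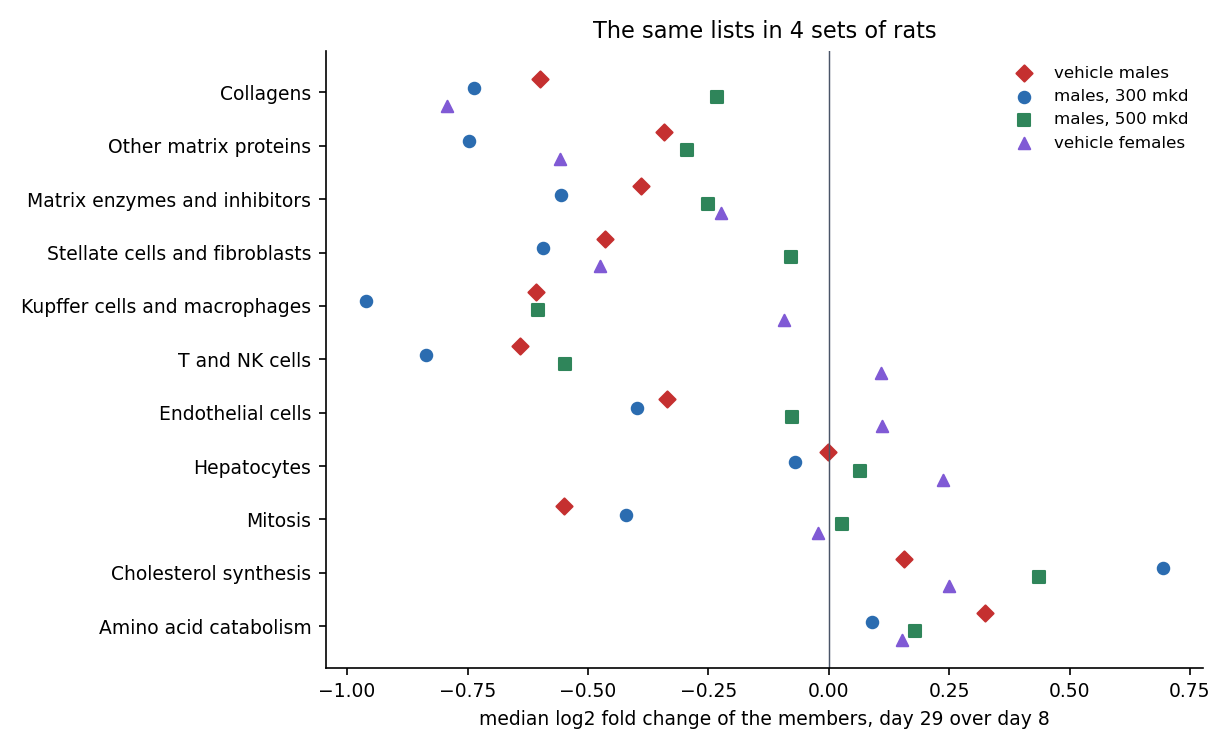
Median log2 fold change of day 29 over day 8 for the tested members of 11 lists in vehicle males, males at 300 mkd, males at 500 mkd and vehicle females, each with 10 rats. Collagens lie below 0 in all 4 sets (-0.792 to -0.232), while Kupffer cell and macrophage markers lie at -0.961 to -0.604 in the male sets and at -0.0936 in females.

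Vehicle males of day 8 were also compared between the experiments, which differ in supplier, count table and labelled age, and these cannot be told apart. Day 8 males of experiment B against those of experiment A had 38 of 10916 genes called (0.348%), 14 higher and 24 lower in experiment B, with 1934 at an unadjusted p under 0.05 (17.7%), and DESeq2 called 328 (3%). The day 8 rats of experiment B also enter the comparison between days. For Col1a1 the difference between experiments was -0.31 (adjusted p = 0.62), for Marco -0.67 (adjusted p = 0.36), for Sparc 0.02 (adjusted p = 0.98) and for Asrgl1 -0.79 (adjusted p = 0.078). Lists with medians above 0 between the days had -0.415 (amino acid catabolism), -0.588 (cholesterol synthesis), -1.37 (erythroid markers), -0.158 (immediate early genes) and 0.29 (interferon genes) for B against A. The matrix list had 0.085 and Kupffer cell and macrophage markers -0.058.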

How the data were processed

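RNA of the left liver lobe of 145 rats was sequenced (TruSeq Stranded mRNA, single end), and the 10 vehicle males of experiment B were compared here. The authors trimmed reads with Trimmomatic, aligned them to rn6 (Bowtie2) and assigned them to genes (HTSeq) (versions not given in the sources used here), and deposited raw counts, with no normalization, for 17337 gene symbols. Tables were joined by symbol, 0 columns were left out, and the HTSeq summary lines (41.4 to 56.7% of counts on day 8, 40.0 to 42.6% on day 29) were kept out of library sizes.

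Tests used edgeR 4.0.16 in R 4.3.3 (glmQLFTest, TMM, filterByExpr) on the 10 rats, without covariates, and DESeq2 1.42.0 as an alternative. Both were tested on simulated counts with known changes. Other alternatives were the size factors of DESeq2, testing every gene, keeping only genes of 10 or more counts in every rat, all 60 males in 1 fit, the replicate number as a block, and leaving out each rat. Replicate numbers do not pair the rats.

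The rats, lists and tests were chosen with earlier results of these data known. Named genes were the 10 most changed each way among called genes without overlap, with a mean of at least 1 CPM and no LOC or RGD symbol, called list members or else the 2 with the highest CPM, every clock gene, and Igf1, Cyp2c11, Cyp2c12, Afp, Mki67 and Alb. Of the listed genes, 29 entries use a symbol that the tables do not and 43 fell under the filter. Promoters were matched by symbol, both strands were searched, and the window of 250 bases before the start is printed.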

Additional observations from a re-analysis of the deposited data

Results flagged for a closer look

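In 83 genes named in the text and the library measures, the highest or lowest rat of a group of 5 was set against the others by the gap to its nearest neighbour, as a share of the group's range. Of 172 groups tested, 18 had a rat farther off than Dixon's 95% critical value (0.71 for 5 rats), 4 on day 8 and 14 on day 29. In this section highest and lowest refer to the 5 rats of the same day. Chance gives about 1 in 20 groups, but the genes are not independent of each other and several were named because 1 rat stood apart, so that the number of such groups cannot be read against chance.

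Replicate 5 of day 29 accounted for 7 of them. It was highest for the interferon-induced genes Mx2 (280 CPM), Isg15 (53.0 CPM) and Oasl (22.8 CPM), for the hormone gene Fgf21 (107 CPM), for the serine synthesis genes Phgdh (11.5 CPM) and Psat1 (4.96 CPM), and for Mat1a, which makes S-adenosylmethionine (5010 CPM).

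Among clock genes, replicate 1 of day 29 was highest for Cry2 (51.3 CPM) and for Nr1d2 (119 CPM), and replicate 3 of day 8 was lowest for Nr1d2 (60.7 CPM). On day 8, replicate 2 was highest for Ciart (5.61 CPM) and replicate 1 lowest for Bhlhe40 (17.4 CPM). Replicate 3 of day 29 was highest for the growth hormone response genes Cish (79.8 CPM) and Cyp2c12 (68.1 CPM).

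Single rats also stood apart for Fos, an immediate early gene (29.3 CPM, day 29 replicate 2), Asns, which makes asparagine (15.3 CPM, day 8 replicate 5), and the P450 Cyp2e1 (2590 CPM, day 29 replicate 1). Within day 29, the share of reads with too low an alignment quality was highest in replicate 2 (18.5%), while day 8 reached 34.3%.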

How the results depend on the processing

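In vehicle males 2 genes were called with DESeq2's size factors, without a filter, with at least 10 counts in every rat, with the clock genes as covariate and without the 2 day 8 rats of low alignment quality (the last 2 added after seeing the data), 35 by DESeq2, 1 with all 60 males in 1 fit and 1 with the replicate block, where LOC500035 had an adjusted p of 0.20. The replicate numbers do not pair the rats: deviations of same-numbered rats correlated at -0.111 to 0.121, and 0 of 5 day 8 rats were most alike to their own number. Leaving out 1 rat gave 1 to 3 genes. Without the 2 day 8 rats of low alignment quality the median of the mitosis genes turned to 0.188, Mki67 to 0.18, Top2a to 0.15 and Igf1 to 0.32 on the log2 scale, and the cause was not tested. Medians of lists near 0, such as the clock and hepatocyte lists, changed sign in several fits.

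Leaving out 1 rat gave 2 to 108 genes for 300 mkd (117 with all; 108 without day 8 replicate 1, 69 and 72 without day 8 replicate 4 or day 29 replicate 5, and 2 to 15 without any of the other 7), 1 to 60 for 500 mkd (60 without day 8 replicate 1), 12 to 48 for experiment B against A (12 and 18 without replicate 3 or 2 of experiment A, 14 and 21 without replicate 4 or 5 of experiment B), 0 to 1 for the interaction (1 without day 29 female replicate 5), 6 to 148 for both sexes (6 without day 8 male replicate 4, 148 without day 8 female replicate 1) and 371 to 599 for the 30 males. DESeq2 called 404, 199, 328, 3 and 172 for the first 5 of these, respectively, and 271 in vehicle females, where edgeR called 43 without a filter and 0 on the 10 females alone.

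With 5 rats a day, day and count table cannot be told apart, and low counts limit the fetal, T cell and neutrophil lists. Neither Rps2 nor LOC500035, the called genes, reversed its direction under the alternatives run. For the other genes and for the medians of lists a reversal was not scored.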

Other observations

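Some genes that no list holds, chosen after their values were seen, also differed more between rats than between days. Chac1, a glutathione-degrading enzyme of the stress response, was 0.58 to 4.49 CPM on day 8 and 0.721, 16.9, 32.9, 28.3 and 1.57 CPM on day 29 (log2 fold change 2.47 ± 0.87, adjusted p = 0.33 in edgeR). The 3 high rats were replicates 2, 3 and 4, the same 3 in which Nr4a1 was above 12 CPM. Fmo5, a flavin monooxygenase, was 203, 154, 13.7, 66.9 and 41.5 CPM on day 8 and 21.2, 70.7, 9.54, 4.90 and 15.8 CPM on day 29 (-1.98 ± 0.78, adjusted p = 0.35), so that day 8 replicate 3 lay among the day 29 rats. Rmrp, the RNA of a mitochondrial RNA-processing endonuclease, was 1.70, 0.479, 3.08, 8.11 and 7.11 CPM on day 8 and 0.309 to 2.26 CPM on day 29 (-2.41 ± 0.76, adjusted p = 0.33), with its 2 highest levels in the day 8 rats of low alignment quality, whose part was not tested.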
